A study of Mus musculus with 12 samples.

Results

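The genes described here encode splicing factors and related RNA-binding proteins in the posterior neural tube of the mouse embryo. They are the genes whose symbol begins with Srsf, Hnrnp, Sf3a, Sf3b, Snrp, Rbm, Celf, Rbfox, Ptbp, Nova or Mbnl, among probe sets that the array annotation assigns to exactly 1 gene. This rule gave 107 of the 18194 genes with such a probe set. They were read by 301 probe sets, and each gene was represented by its probe set of highest mean signal. Of the 107 genes, 2 are antisense transcripts rather than protein genes: Rbm3os and Rbm46os, named after Rbm3, which is not among the 107, and Rbm46, which is.

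Splicing joins the exons of a pre-mRNA on the spliceosome, a machine of small nuclear RNAs and proteins that every nucleated cell needs. The Sf3a and Sf3b proteins belong to the U2 particle that binds the branch site, and most Snrp genes encode Sm or particle-specific proteins of the small nuclear ribonucleoproteins. SR proteins (Srsf) bind exons and promote their inclusion, and the abundant hnRNPs often oppose them. The Celf, Rbfox, Ptbp, Nova and Mbnl proteins bind short RNA motifs around chosen exons and set tissue-specific splicing, in nervous tissue among others. In the developing nervous system Ptbp1 is known for repressing neuronal exons, and Nova proteins for regulating exons of neuronal transcripts.

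RNA was taken from CD1 embryos at E9.5, without genetic alteration or treatment. The posterior neural tube was freed from surrounding tissue in pancreatin at 2 mg/ml for 1 min and cut into 6 pieces, labelled part 1 to part 6. Each piece was measured on 2 Affymetrix arrays, replicate 1 and replicate 2, taken from 2 embryos, which gave 12 arrays after 2 rounds of amplification. The labels do not say which numbered end lies nearer the tail, and every comparison below is by part number.

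The values are MAS5 signals, linear probe set intensities scaled so that the trimmed mean of each array is 100, with array medians between 16.7 and 19.1. Arrays of the same piece correlated with r between 0.951 and 0.980 across the 12089 genes tested, on the log2 scale given next. Signals were tested as log2(signal + 4.43) with limma, and p-values were adjusted over the 12089 genes whose probe set lay above its array's median on at least 2 arrays. A slope is the change on that scale per piece, from part 1 toward part 6, and its error is a standard error. The slope fit treated the arrays as independent, and its error is their scatter about a straight line, curvature over the pieces included. The F test and the comparisons of pieces took their error from the differences between the 2 arrays of each piece. Those differences were treated as independent, although deviations of same-numbered arrays from the piece means correlated (r 0.183 to 0.335). With 2 embryos, these p-values say little about variation between animals. Summed signals of the neural progenitor markers (Sox2, Sox1, Sox3, Sox21, Pax6 and Nes) were 506 and 561 on the part 1 arrays and 3014 and 3116 on those of part 6, and 5 of 6 rose. Those of the presomitic mesoderm markers went the other way, 3972 and 5511 against 210 and 230, and 4 of 6 tested fell.

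The upstream sequences of the Mbnl and Nova genes are shown because these 5 genes differed between the end pieces while the other families mostly did not. Each is the 250 bases before a transcription start in RefSeq, build GRCm38.p6, written 5′ to 3′ on the gene's own strand. Mbnl1 has a start preceded by chr3:60472580-60472829 and another preceded by chr3:60500929-60501178, both on the plus strand. Mbnl2 has chr14:120275419-120275668 on the plus strand, and Mbnl3 has chrX:51205991-51206240 on the minus strand. Nova1 has chr12:46818768-46819017 on the minus strand, and Nova2 has chr7:18925638-18925887 on the plus strand. Capitals mark matches, on either strand, to any of 7 motifs searched: TATAAA (the TATA box), CCAAT (the CCAAT box), GGGCGG (the core of the GC box), CACGTG (an E-box), AGGTCA (a nuclear receptor half-site), CTTTGA (the core of TCF and LEF sites) and ACAATG (a core of Sox sites).
Mbnl1 start 1: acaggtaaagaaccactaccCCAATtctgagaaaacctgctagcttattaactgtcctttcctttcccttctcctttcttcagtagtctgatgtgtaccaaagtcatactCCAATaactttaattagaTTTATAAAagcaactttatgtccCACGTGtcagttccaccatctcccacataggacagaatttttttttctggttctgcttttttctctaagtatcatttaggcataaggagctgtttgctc
Mbnl1 start 2: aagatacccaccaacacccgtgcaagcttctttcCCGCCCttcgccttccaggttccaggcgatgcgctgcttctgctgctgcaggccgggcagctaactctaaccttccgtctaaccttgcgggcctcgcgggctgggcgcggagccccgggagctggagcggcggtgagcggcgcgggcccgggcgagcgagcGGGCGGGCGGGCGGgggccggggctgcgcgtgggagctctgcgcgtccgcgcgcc
Mbnl2: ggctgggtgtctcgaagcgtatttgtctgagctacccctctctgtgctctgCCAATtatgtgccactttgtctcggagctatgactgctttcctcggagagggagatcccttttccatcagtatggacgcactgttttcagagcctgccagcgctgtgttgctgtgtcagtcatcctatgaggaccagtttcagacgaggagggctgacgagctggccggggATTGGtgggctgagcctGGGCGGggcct
Mbnl3: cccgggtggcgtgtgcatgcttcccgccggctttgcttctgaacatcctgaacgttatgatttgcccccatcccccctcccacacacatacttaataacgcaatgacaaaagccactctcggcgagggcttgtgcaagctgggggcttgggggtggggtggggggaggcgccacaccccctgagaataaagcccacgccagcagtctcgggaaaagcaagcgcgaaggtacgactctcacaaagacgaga
Nova1: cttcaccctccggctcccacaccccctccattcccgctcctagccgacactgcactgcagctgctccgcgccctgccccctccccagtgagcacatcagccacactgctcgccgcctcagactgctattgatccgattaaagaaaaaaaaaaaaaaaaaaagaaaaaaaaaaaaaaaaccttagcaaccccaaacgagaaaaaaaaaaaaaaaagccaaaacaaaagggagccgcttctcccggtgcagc
Nova2: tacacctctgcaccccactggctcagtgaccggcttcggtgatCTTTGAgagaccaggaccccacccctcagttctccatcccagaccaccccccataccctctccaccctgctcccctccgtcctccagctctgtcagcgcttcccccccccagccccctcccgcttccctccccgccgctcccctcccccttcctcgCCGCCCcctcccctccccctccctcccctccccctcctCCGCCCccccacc

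The Mbnl1 starts had different upstream sequences. Start 1 had 38% G and C and a CpG observed over expected ratio of 0.121, with overlapping TATAAA matches on the 2 strands 122 and 120 bases before the start, CCAAT at 230 and 140 bases and CACGTG at 99 bases. Start 2 had 73.6% G and C, a CpG ratio of 0.977 and GGGCGG at 216, 55, 51 and 47 bases, the last 3 overlapping. Which start was used in these pieces was not measured. Mbnl2 held CCAAT at 199 and 28 bases and GGGCGG at 11 bases, and Nova2 held CTTTGA at 207 bases and GGGCGG at 51 and 13 bases. No motif was found in these windows for Mbnl3 or Nova1. RefSeq windows were found for 92 of the 107 genes, 133 windows in all. GGGCGG was in 50.4% of them and in 32.7% of all 32851 windows. CCAAT was in 39.1% against 33.8%, TATAAA in 10.5% against 12.4%, CACGTG in 7.52% against 6.02%, AGGTCA in 9.77% against 14%, CTTTGA in 9.77% against 13.8% and ACAATG in 5.26% against 10.7%. A CpG ratio above 0.6, as in CpG island promoters, was found in 69.9% of members' windows and in 34% of all windows. It was found in 100% of Srsf and Sf3 windows, 96.2% of Hnrnp windows, 72.7% of Rbm windows and 45.5% of Snrp windows. Among the other families it was found in 100% of the 2 Ptbp windows, 50% of the Mbnl and of the Nova windows, 25% of the 20 Celf windows and 0% of the 3 Rbfox windows.

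Few of these genes differed along the tube, and those that did were mostly tissue-specific regulators. Of the 107 genes, 97 passed the filter and were tested, and 10 did not. Over part number, 5 of the 97 changed, or 5.15%, while 12.7% of all genes tested did. Mbnl1, Nova2 and Rbms3 rose, and Mbnl2 and Mbnl3 fell. In all genes the shares were 5.66% for rises and 7.08% for falls. Centring each array on its median instead of its trimmed mean gave 6 rises and 2 falls among members, adding Celf2, Nova1 and Srsf6 to the rises. That centring also moved the median slope of all genes tested from -0.0073 to 0.0096. Rises and falls over all genes were not counted separately with it. At an unadjusted p under 0.05, 23 members passed, or 23.7%, against 26.6% of all genes. The F test among the 6 pieces called 3 members, or 3.09%, against 4.91% of all genes: Mbnl1, Mbnl2 and Mbnl3. Between part 6 and part 1, 6 members differed, or 6.19%, against 9.09% of all genes: Mbnl1, Nova1 and Nova2 were higher in part 6 (4.17% of all genes were) and Mbnl2, Mbnl3 and Celf4 lower (4.92%). The arrays of the end pieces did not overlap for 43 members, or 44.3%, against 46.9% of all genes.

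**Figure D1:**
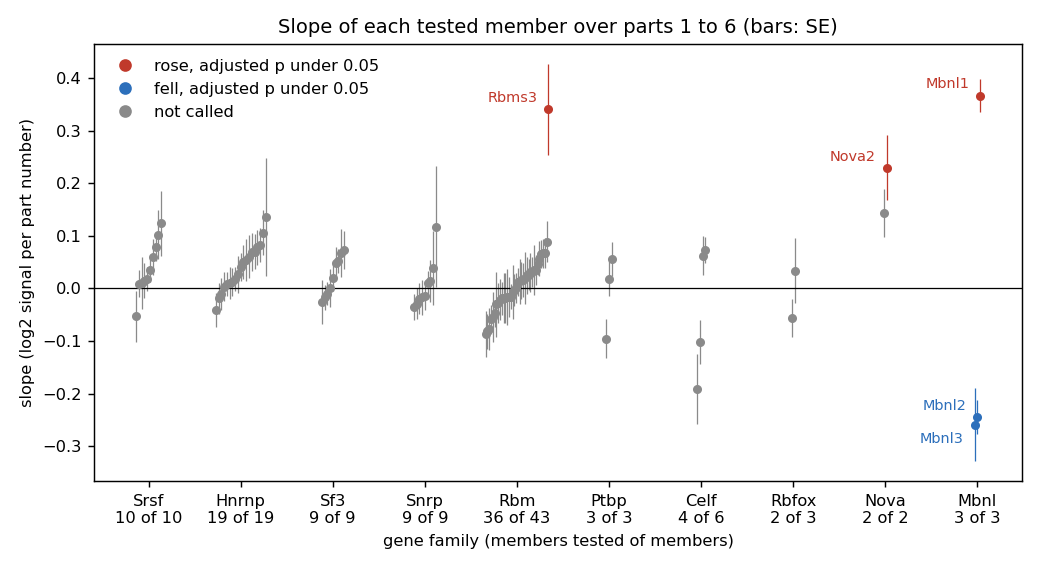
Slope over part number (log2 units per piece) for each of the 97 tested genes, grouped by family, with standard errors as bars and genes that passed the limma test coloured and named. Most genes of the Srsf, Hnrnp, Sf3, Snrp and Rbm families lie within 0.1 of 0, both Nova genes, Mbnl1 and Rbms3 lie above that and Mbnl2 and Mbnl3 below.

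Between one piece and the next, limma called 0 members at any of the 5 steps, and 13 had an unadjusted p under 0.05 at 1 or more of them, or 13.4%, against 19.9% of all genes. In all genes the share called was 0.248% for part 2 against part 1, 0.19% for part 3 against part 2 and 0.00827% for each of the other 3 steps. The median slope of the tested members was 0.02, and over all genes tested it was -0.01. The median size of the slope was 0.04 in members and 0.05 in all genes. Slopes larger than 0.1 in either direction were found in 13.4% of members and 24.2% of all genes. For 79 of 97 members, or 81.4%, the 95% interval of part 6 minus part 1 lay within a 2-fold change either way, and this held for 61% of all genes tested. The members' median signal stood at the 86.6th percentile of the genes tested.

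**Figure D2:**
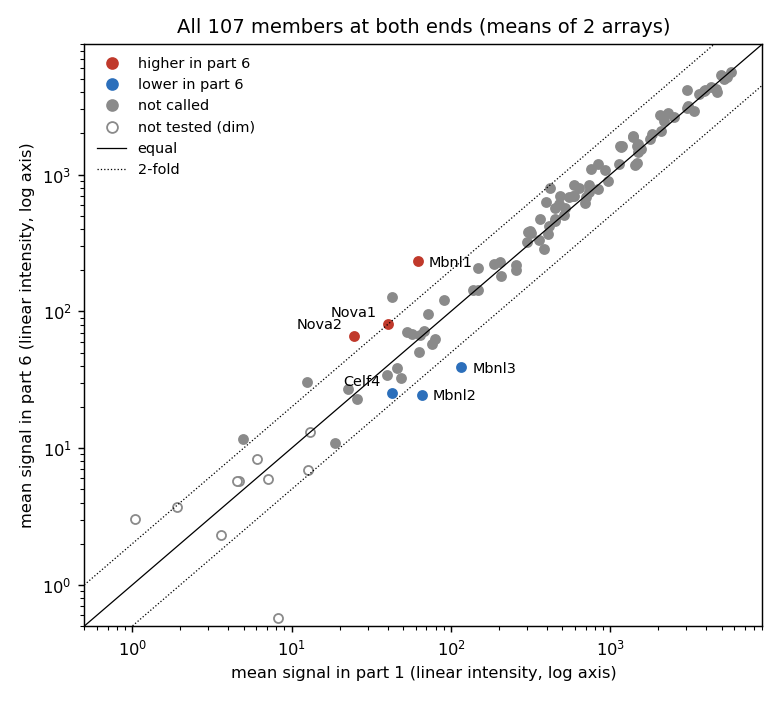
Mean signal in part 1 (x axis) against part 6 (y axis), both linear intensities on log axes, for all 107 genes, with the line of equality and the 2-fold lines. Points are means of 2 arrays, filled where the gene was tested and coloured where the 2 pieces differed; the 6 named genes are low to middling in signal, and the brightest genes lie close to equality.

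Transcript signals of the core machine's genes mostly varied little over the 6 pieces. Of the 9 Sf3 and 9 Snrp genes, all 18 were tested, and limma called 0 of them in the slope test, the F test or the comparison of the ends. Sf3b2, a subunit of the SF3B complex, had signals of 2324 and 2303 in part 1, 2536 and 2446 in part 2, 2710 and 2381 in part 3, 2721 and 2933 in part 4, 2417 and 2833 in part 5, and 2754 and 2920 in part 6. The part 6 arrays both lay above the part 1 arrays, with a difference on the log2 scale of 0.29 ± 0.16 (95% interval -0.06 to 0.65, adjusted p = 0.312). Snrpe, a protein of the Sm ring, ranged from 4258 to 6590, and both of these extremes were arrays of part 1. Its difference between the ends had an interval from -0.54 to 0.44. The median ratio of a gene's highest to its lowest array was 1.49 in Sf3 and 1.44 in Snrp genes, against 1.97 over all genes tested. These ratios are of signals without the offset, and the families differ in brightness from the background. The median of the genes' mean signals was 930 in Sf3 and 1381 in Snrp genes, and 113 over all genes tested. Genes of like signal were not compared. Snrpn, which is imprinted and neuronal, was near the filter: it was above the array median on 3 arrays, at signals from 2.78 to 25.2, and its slope of 0.12 had an adjusted p of 0.57.

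The SR protein and hnRNP genes likewise had 0 calls among 29 tested in these limma tests. With the Sf3 and Snrp genes this made 0 of 47, against 12.7% of all genes for the slope, 4.91% for the F test and 9.09% for the ends. At an unadjusted p under 0.05 there were 6 of the 47 for the slope, 0 for the F test and 6 for the ends. The unadjusted shares of all genes were 26.6%, 15.7% and 23.3%. Srsf1, the founding SR protein, ranged from 4346 to 5974 with no order by piece, and its slope was 0.01 ± 0.03 (adjusted p = 0.861). Its difference between the ends lay between -0.29 and 0.52 (95% interval). Hnrnpab ranged from 4970 to 6862, with an interval from -0.46 to 0.39. For 39 of the 47 genes, or 83%, the interval lay within 2-fold, against 61% of all genes tested. The 47 were brighter, with a median mean signal of 1509 against 113, and genes of like signal were not compared.

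Slopes above 0 were found for 9 of 10 Srsf genes and 16 of 19 Hnrnp genes, with family medians of 0.03 and 0.04. The Srsf count was 9 of 10 with quantile normalization and with median centring too, and the Hnrnp count was 18 and 17. Over all genes tested the median slope was -0.0073, and -0.0048 and 0.0096 with these 2 scalings. The share of all genes with a slope above 0 was not counted, so these counts have no background. Srsf6 came nearest to a call, with signals of 1268 and 1084 in part 1, 1472 and 1504 in part 2, 1663 and 1461 in part 3, 1565 and 1563 in part 4, 1710 and 1558 in part 5, and 1652 and 1604 in part 6. Both part 1 arrays were the lowest of the 12, and the slope was 0.08 (adjusted p = 0.0675). With the embryo as a block, Hnrnph3 also rose, at a slope of 0.11 (adjusted p = 0.0304 with the block and 0.123 without it). Srsf6 and Hnrnph3 are named after their values were seen.

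Among the same families, the widest differences between the ends rested on uneven arrays. Srsf10, an SR protein that can repress splicing, had 376 and 462 in part 1 and 561 and 1021 in part 6, a difference of 0.85 ± 0.39 (adjusted p = 0.225). Its signal was higher in replicate 2 in 6 of 6 pieces. Hnrnpl was dim, from 5.27 to 74.96 over the 12 arrays, and its difference of 1.14 ± 0.51 had an adjusted p of 0.221. Its lowest array was replicate 2 of part 1, and its highest was replicate 2 of part 3.

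The Rbm symbol covers genes with an RNA recognition motif and many unrelated tasks. Of 43 such genes 36 were tested, and 1 rose and 0 fell, or 2.78%, against 12.7% of all genes. At an unadjusted p under 0.05 there were 8 of the 36, against 26.6% of all genes. In 33 of the 36, or 91.7%, the interval of the difference between the ends lay within 2-fold, against 61% of all genes tested. The gene that rose was Rbms3, of a family of single-strand binding proteins that also bind mRNA. Its signals were 67.3 and 18.3 in part 1, 69.7 and 28.5 in part 2, 40.8 and 46.0 in part 3, 34.6 and 64.1 in part 4, 110 and 91.6 in part 5, and 117 and 139 in part 6. Parts 5 and 6 were above every other array, and in parts 1 and 2 the 2 embryos were far apart. The slope was 0.34 ± 0.09 (limma adjusted p = 0.0200), and by embryo it was 0.16 and 0.52.

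Rbms3 averaged 42.8 ± 34.7 in part 1 and 128 ± 15.5 in part 6 (SD, n = 2 each), and the ends did not pass the test (1.71 ± 0.53, adjusted p = 0.0821), and without replicate 2 of part 1 the difference was 0.88 (0.288). They passed without replicate 1 of part 1 (2.54, 0.0173), with the offset at the median (0.0414), with the mean of the Rbms3 probe sets (0.0315) and with a variance trend (0.0456). The slope call was lost without replicate 2 of part 1 (adjusted p = 0.0747), without replicate 1 or 2 of part 6 (0.0547 and 0.0698) and without part 6 altogether (0.205). Its other 3 probe sets above the filter had slopes of 0.25, 0.27 and 0.28, of which the first 2 passed the test over all probe sets (adjusted p = 0.0307 and 0.0211) and the last did not (0.0746). At the other end of the family, Rbm43 had the lowest difference, with 54.5 and 42.4 in part 1 and 38.4 and 27.2 in part 6. That difference was -0.51 ± 0.26 (adjusted p = 0.267).

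Of the 5 families of tissue-specific regulators, 14 of 17 genes were tested. Over part number 4 changed, or 28.6%, against 12.7% of all genes. Between the ends 6 differed, or 42.9%, against 9.09% of all genes. For 7 of the 14, or 50%, the interval of the difference between the ends lay within 2-fold, against 61% of all genes tested. The 3 not tested were Celf5, Celf6 and Rbfox1, whose highest signals were 18.3, 8.81 and 14.7. These values were near or below the array medians, and nothing was read from them.

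The Ptbp genes were measured in all pieces and did not pass any test. Ptbp1 ranged from 352 to 570, with a slope of 0.02 ± 0.03 (adjusted p = 0.787). Its part 1 arrays, at 546 and 352, spanned most of that range. Ptbp2, the paralog that replaces Ptbp1 in neurons, ranged from 877 to 1350, with a slope of 0.06 ± 0.03 (adjusted p = 0.298). Its lowest arrays were both of part 2. Ptbp3 ranged from 191 to 314, with a slope of -0.10 ± 0.04 (adjusted p = 0.116). The intervals of the difference between the ends were -0.44 to 0.56 for Ptbp1, -0.33 to 0.47 for Ptbp2 and -0.70 to 0.25 for Ptbp3.

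Rbfox2, a regulator found in muscle and brain, ranged from 53.1 to 92.8, with a slope of -0.06 ± 0.04 (adjusted p = 0.355). Rbfox3, the neuronal nuclear antigen NeuN, ranged from 17.7 to 51.4, and its slope was 0.03 ± 0.06 (adjusted p = 0.782). The highest arrays of Rbfox3 were those of part 4, at 39.6 and 51.4, and those of the ends overlapped.

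In the Celf family, whose proteins bind GU-rich RNA, Celf4 was lower in part 6 and the others did not pass. Celf4 had 44.6 and 40.4 in part 1, 29.8 and 33.1 in part 2, 26.5 and 29.2 in part 3, 21.7 and 20.7 in part 4, 33.1 and 32.2 in part 5, and 28.9 and 21.4 in part 6. Part 1 was above every other array, and part 4 was lowest in its mean. Part 6 minus part 1 was -0.68 ± 0.17 (limma adjusted p = 0.0392), and the slope was -0.10 ± 0.04 (adjusted p = 0.135). The difference between the ends held in 1 of 12 omissions of a single array, that of replicate 1 of part 6, and rose to an adjusted p of up to 0.276 in the other 11. It was also lost with median centring (0.0795) and with the mean of the Celf4 probe sets above the filter (0.378), among 5 other settings.

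Celf3 had 17.8 and 19.7 in part 1 and 8.90 and 12.8 in part 6, with a slope of -0.19 ± 0.07 (adjusted p = 0.0801). It passed the filter only through its part 1 arrays, so a high value there was a condition of its being tested. Celf2 ranged from 69.4 to 97.1 with its highest arrays in part 6, and its slope was 0.07 ± 0.02 (adjusted p = 0.0635). Celf1 ranged from 2393 to 4461, with a slope of 0.06 ± 0.04 (adjusted p = 0.324) and its lowest array in part 1.

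Both Nova genes were higher in part 6 than in part 1. Nova1 had 33.2 and 47.4 in part 1, 64.5 and 69.8 in part 2, 69.7 and 90.1 in part 3, 61.4 and 60.1 in part 4, 81.7 and 74.97 in part 5, and 81.1 and 80.8 in part 6. Every array of parts 2 to 6 was above both of part 1. Part 6 was 2.01 times part 1 by mean signal, 0.95 ± 0.20 on the log2 scale (limma adjusted p = 0.0160). The slope was 0.14 ± 0.05 and did not pass (adjusted p = 0.0539), but did under 4 other settings, quantile normalization (0.0465) and median centring (0.0277) among them. Without replicate 1 of part 1 the Nova1 slope was 0.09 (adjusted p = 0.182), and without part 1 it was 0.05 (adjusted p = 0.573).

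Nova2 had 27.3 and 21.9 in part 1, 40.6 and 58.9 in part 2, 48.6 and 76.2 in part 3, 73.4 and 83.9 in part 4, 60.0 and 76.8 in part 5, and 57.4 and 74.6 in part 6. Part 1 was again below every other array, and the highest mean was in part 4. Part 6 was 2.69 times part 1, 1.28 ± 0.26 on the log2 scale (limma adjusted p = 0.0163), and the slope was 0.23 ± 0.06 (adjusted p = 0.0273). The F test had an adjusted p of 0.0537, and 0.0207 with the embryo as a block.

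The Nova calls depended on single arrays of the end pieces. Without replicate 1 of part 6 the adjusted p of Nova1 between the ends was 0.0816, and without replicate 2 it was 0.0939. For Nova2 between the ends it was 0.0676 without replicate 2 of part 1 and 0.127 without replicate 2 of part 6. The Nova2 slope had 0.0967 and 0.0937 without replicate 1 or 2 of part 1, 0.0534 without replicate 2 of part 5 and 0.457 without part 1. Each gene had 1 more probe set, which was below the filter.

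**Figure D3:**
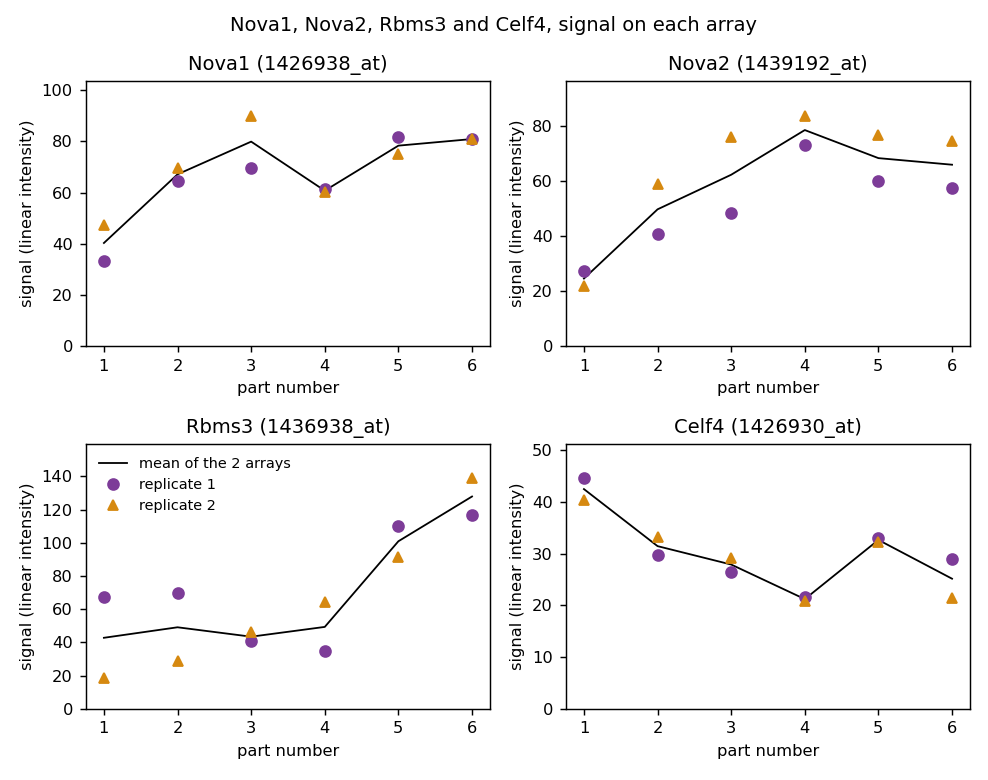
Signal (linear intensity, axis from 0) of Nova1, Nova2, Rbms3 and Celf4 against part number, 1 point per array with a marker for each embryo and a line through the means of 2 arrays. Part 1 is the lowest piece for both Nova genes and the highest for Celf4, and the 2 embryos are apart for Rbms3 in parts 1 and 2.

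The 3 Mbnl genes, whose proteins are known for being trapped on repeat RNA in myotonic dystrophy and for switching fetal to adult exons, all changed, and not in 1 direction. Mbnl1 had 59.0 and 64.5 in part 1, 93.8 and 82.8 in part 2, 135 and 123 in part 3, 159 and 113 in part 4, 198 and 216 in part 5, and 231 and 235 in part 6. The piece means increased at every step and the end pieces did not overlap. Mbnl1 averaged 61.7 ± 3.90 in part 1 and 233 ± 2.86 in part 6 (SD, n = 2 each), 3.77 times as much. The slope was 0.37 ± 0.03 (limma adjusted p = 8.5e-06), and part 6 minus part 1 was 1.84 ± 0.19 (adjusted p = 0.000326).

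Mbnl2 had 72.2 and 58.5 in part 1, 60.2 and 65.7 in part 2, 40.6 and 50.4 in part 3, 37.9 and 35.9 in part 4, 37.1 and 39.8 in part 5, and 27.5 and 21.6 in part 6. Parts 1 and 2 overlapped, and both arrays of part 6 were below all others. The mean went from 65.3 ± 9.69 to 24.6 ± 4.16 (SD, n = 2 each), with part 1 at 2.66 times part 6. The slope was -0.24 ± 0.03 (limma adjusted p = 0.000238), and part 6 minus part 1 was -1.27 ± 0.18 (adjusted p = 0.00265).

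Mbnl3, which is X-linked, had 102 and 130 in part 1, 71.3 and 58.2 in part 2, 28.2 and 40.9 in part 3, 34.3 and 38.6 in part 4, 50.7 and 32.6 in part 5, and 42.3 and 35.7 in part 6. It was high in part 1, lower in part 2 and lowest by mean in part 3, and parts 3 to 6 overlapped. The mean was 116 ± 19.6 in part 1 and 39.0 ± 4.67 in part 6 (SD, n = 2 each), and part 1 was 2.98 times part 6. The slope was -0.26 ± 0.07 (limma adjusted p = 0.0267), and part 6 minus part 1 was -1.47 ± 0.25 (adjusted p = 0.00620). In the F test the adjusted p was 0.00219 for Mbnl1, 0.0172 for Mbnl2 and 0.0188 for Mbnl3.

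**Figure D4:**
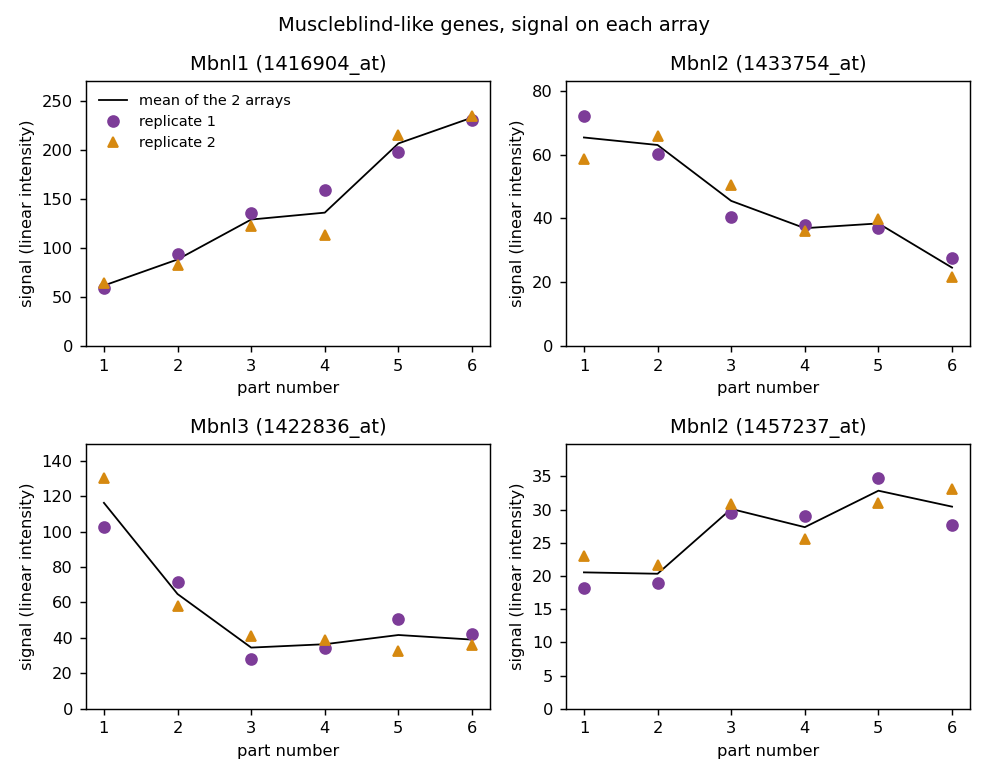
Signal (linear intensity, axis from 0) of Mbnl1, Mbnl2, Mbnl3 and another Mbnl2 probe set (1457237_at) against part number, 1 point per array with a marker for each embryo and a line through the means of 2 arrays. Mbnl1 climbs from a mean of 61.7 to 233 over the 6 pieces, Mbnl2 declines from 65.3 to 24.6, and Mbnl3 drops from 116 in part 1, with parts 3 to 6 overlapping; the other Mbnl2 probe set is higher in parts 3 to 6 than in parts 1 and 2.

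The Mbnl1 and Mbnl2 slopes passed in each of the 12 omissions of a single array. The Mbnl3 slope rested on part 1: its adjusted p was 0.0933 without replicate 1 and 0.0932 without replicate 2 of that piece, and 0.445 without both. It was 0.0531 without replicate 2 of part 5, and the difference of Mbnl3 between the ends had 0.0569 without replicate 2 of part 6. The progenitor markers were higher and the presomitic markers lower in the pieces where Mbnl1, Nova1 and Nova2 were higher and Mbnl2 and Mbnl3 lower, as given above. Their part in these results was not tested. In pieces measured in bulk, fewer cells of a type and less RNA per cell cannot be told apart.

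Probe sets of the same gene read different stretches of its transcripts, and for Mbnl2 they did not move together. The probe set described above, 1433754_at, fell, and 1457237_at rose. The latter had 18.1 and 23.0 in part 1, 19.0 and 21.7 in part 2, 29.4 and 30.8 in part 3, 29.1 and 25.6 in part 4, 34.7 and 31.0 in part 5, and 27.7 and 33.2 in part 6. Parts 1 and 2 were below parts 3 to 6 on every array, although all values were near the array medians. Its slope was 0.12 ± 0.03 (limma adjusted p = 0.0383 over the 21679 probe sets kept). The other 2 had slopes of -0.21 (1455827_at, adjusted p = 0.0516) and -0.07 (1457477_at, adjusted p = 0.565). The log2 ratio of 1457237_at to 1433754_at had a slope of 0.36 ± 0.05 (adjusted p = 0.0028). This was the 1 call among 150 such pairs from 63 members, or 0.667%, and 0.574% of all 9590 pairs passed. With the mean of all Mbnl2 probe sets above the filter, the difference between the ends was no longer called (adjusted p = 0.233). The other Mbnl3 probe set above the filter, 1434678_at, had a slope of -0.18 (adjusted p = 0.109), and the other Mbnl1 probe sets were below the filter.

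Over the 150 probe sets that did not represent their gene, 11 rose and limma called 0 falls, together 7.33%. The share was 8.93% of all probe sets kept (4.07% rose and 4.86% fell), which include those that represent their gene. It was not counted among the other probe sets of all genes, so the 7.33% has no like background. Apart from 1 of Mbnl2 and 2 of Rbms3, the 11 were 2 of Hnrnpd, 2 of Hnrnpdl and 1 each of Hnrnpr, Sf3b2, Srsf1 and Srsf6. Srsf1 had a slope of 0.10 ± 0.03 by its probe set 1428100_at (adjusted p = 0.0338), at 677 and 703 in part 1 against 920 and 949 in part 6, and 0.01 by its representing probe set. Hnrnpdl had a slope of 0.12 ± 0.02 by 1428224_at (adjusted p = 0.0106), at 502 and 498 in part 1 against 835 and 768 in part 6, and 0.00 by its representing probe set. In both, the part 6 arrays of the dimmer probe set were above those of part 1. The ratio to the representing probe set passed in neither, at an adjusted p of 0.403 for Srsf1 and 0.330 for Hnrnpdl.

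Other genes of the pathway were taken from a list of 99 splicing and RNA-binding genes outside the symbol rule, of which 90 were tested. Of these 6 rose and 1 fell, or 7.78%, against the 12.7% of all genes, and the median slope was 0.03. Msi1, Musashi, which marks neural progenitors and controls translation, had 93.5 and 124 in part 1, 152 and 157 in part 2, 173 and 237 in part 3, 191 and 228 in part 4, 243 and 245 in part 5, and 350 and 419 in part 6. It was lowest in part 1 and highest in part 6 with no overlap, at a slope of 0.31 ± 0.04 (limma adjusted p = 9.6e-05). The genes of the neuronal Hu proteins, Elavl4 (0.26, adjusted p = 0.0320) and Elavl2 (0.18, adjusted p = 0.0410), rose. So did Igf2bp3 (0.15, adjusted p = 0.0201), the paraspeckle protein gene Pspc1 (0.12, adjusted p = 0.0157) and Qk, Quaking (0.08, adjusted p = 0.0239). Esrp1, the epithelial splicing regulator, was the gene counted as falling, at a slope of -0.62 ± 0.15 (adjusted p = 0.0137). It had 103 and 14.3 in part 1, 5.72 and 51.0 in part 2 and at most 10.6 on any array of parts 3 to 6. It passed the filter only through 1 array of part 1 and 1 of part 2, so high values there were a condition of its being tested, and the embryos were far apart in both pieces. Surface ectoderm markers were high in the same pieces: their summed signal was 464 to 1200 in part 1 and 144 to 159 in part 6, and 7 of 8 tested fell. Their part in the Esrp1 values was not tested.

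The neuron markers did not all move one way. Of 11 neuron markers 7 were tested, of which Elavl4 rose and Stmn2 and Map2 fell, and their summed signal was 306 to 372 in part 1 and 315 to 367 in part 6. Of the somite markers 1 of 3 tested fell, with a sum of 101 to 158 in part 1 and 44.8 to 64.9 in part 6. Gut endoderm markers summed to 46.5 and 139 in part 1 and 150 and 163 in part 6, and 1 of 2 tested rose. Their highest sum in part 2 was 575. Endothelial markers summed to at most 62.6 on any array of either end, and 1 of 7 passed the filter. The blood marker sum was 52.3 on one part 1 array and 9936 on the other, and 92.0 and 6296 in part 6, so the blood marker signal was uneven between arrays of the same piece.

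The 2 embryos were compared with the piece as a covariate. With 1 embryo per replicate number, these p-values rest on the spread among pieces, not among animals. Of the 97 members 1 differed, or 1.03%, against 1.63% of all genes (0.72% higher and 0.91% lower in replicate 2), and 16 had an unadjusted p under 0.05, or 16.5%, against 19.8% of all genes. The member called was Rbmx, an X-linked gene for an hnRNP-like protein, with replicate 1 and replicate 2 at 476 and 342 in part 1, 584 and 359 in part 2, 578 and 359 in part 3, 482 and 414 in part 4, 528 and 283 in part 5, and 478 and 358 in part 6. Replicate 1 was higher in 6 of 6 pieces, and replicate 2 minus replicate 1 was -0.56 ± 0.11 (limma adjusted p = 0.0425). None of the 12 fits that omitted a single array called it (adjusted p 0.0521 to 0.128). Its other probe sets pointed the other way: 1426863_at had 0.15 (adjusted p = 0.407) and 1416355_at had 0.46, higher in replicate 2 in 6 of 6 pieces (adjusted p = 0.0845). Rbmxl1, a copy of Rbmx made by retrotransposition whose probes may share signal with it, was higher in replicate 2 in 6 of 6 pieces, by 0.19 ± 0.09 (adjusted p = 0.280). The direction for Rbmx is therefore uncertain. The replicates also differed in Xist, the RNA of the inactive X, at 628 to 1610 in replicate 1 and 0.810 to 7.46 in replicate 2.

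The largest differences in each direction apart from Rbmx did not pass over genes. Higher in replicate 2 were Rbm12b1 in 6 of 6 pieces, by 0.59 ± 0.12 (adjusted p = 0.0515, and 0.0374 over probe sets), Snrpd3 in 5 of 6, by 0.58 ± 0.16 (adjusted p = 0.113), and Srsf10, by 0.45 ± 0.17 (adjusted p = 0.206). Lower in replicate 2 were Rbm6 in 4 of 6 pieces, at -0.35 ± 0.15 (adjusted p = 0.240), and Hnrnpa0 in 6 of 6, at -0.33 ± 0.09 (adjusted p = 0.107). For Rbm6 another probe set, 1417213_a_at, went the other way, by 0.50 ± 0.11 in 6 of 6 pieces (adjusted p = 0.0410 over probe sets).

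The other probe sets of the members were also compared between the embryos. All probe sets kept, the background here, include those that represent their gene. The share called among the others of all genes was not counted, so the 150 have no like background. Adjustment here ran over the 21679 probe sets, so these shares are not set against those over genes. Of the 150, limma called 13 from 8 genes, or 8.67%, against 3.72% of all probe sets kept: 11 were higher in replicate 2 (2.34% of all were) and 2 lower (1.37%). They read Celf1, Rbm25, Rbm26, Rbm39, Rbm5, Rbm6, Sf3b2 and Srsf3, and probe sets of 1 gene are not independent. These genes are named after their values were seen.

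Rbm39, a partner of the U2AF splice site factors, had probe sets on both sides. By 1446147_at replicate 1 and replicate 2 had 191 and 366 in part 1, 194 and 359 in part 2, 192 and 396 in part 3, 206 and 359 in part 4, 218 and 372 in part 5, and 194 and 487 in part 6. By 1438398_at they had 261 and 124, 234 and 125, 243 and 126, 266 and 95.7, 260 and 150, and 276 and 118 in the same order. The embryos did not overlap in either probe set, and replicate 2 was the higher in the former and the lower in the latter. Replicate 2 minus replicate 1 was 0.95 ± 0.10 (adjusted p = 0.0029) for the former and -1.04 ± 0.11 (adjusted p = 0.0027) for the latter. A further probe set was called on each side, 1446148_x_at at 0.81 ± 0.11 and 1438397_a_at at -1.22 ± 0.22, while the representing probe set had 0.06 ± 0.09 (adjusted p = 0.762).

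Rbm5, a regulator of exon choice in apoptosis genes, was higher in replicate 2 by 3 probe sets, at 0.98 ± 0.19, 1.16 ± 0.20 and 1.14 ± 0.17, in 6 of 6 pieces each (adjusted p = 0.0324, 0.0177 and 0.0104). Its representing probe set had -0.15 ± 0.11 (adjusted p = 0.447). In Rbm39, Rbm5, Rbm6 and Rbmx the difference between embryos thus varied in size or direction with the probe set, and the transcript stretch that each probe set reads was not examined.

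No gene of the 12089 had a slope that differed between the embryos by limma's interaction test (0%), and 5 of the 97 members had an unadjusted p under 0.05, or 5.15%, against 6.6% of all genes.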

How the data were processed

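Per the labels, RNA from 6 pieces of posterior neural tube was hybridised to 12 Affymetrix arrays after 2 rounds of amplification. The deposited value of each probe set is a linear signal intensity, for which the submitters' processing notes name MAS5 as the tool; no version or settings stand in the sources used here. The column means without the outer 2% of values were 100 on each array, and this scale was kept. Of 45101 probe sets, 64 were controls, 34958 had 1 gene symbol, 932 several and 9211 none; 34754 were matched by Entrez ID to RefSeq names (GRCm38.p6).

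log2(signal + 4.43) was tested with limma 3.58.1 in R 4.3.3, the offset being 0.25 of the median signal, 17.7, and differences are on that scale, which understates the change of dim genes. Probe sets above their array's median in at least 2 arrays were kept (21679, giving 12089 genes), with 1 probe set per gene, that of highest mean signal. Fits used all 12 arrays, with part number as a slope, a coefficient per piece, or piece plus replicate. Benjamini-Hochberg adjustment ran over all genes with a threshold of 0.05. Replicate numbers pair the arrays: the design names 2 embryos, and deviations of same-numbered arrays from the piece means correlated in all 15 pairs of pieces (r 0.183 to 0.335, median 0.234). The processing steps were run on simulated data. The simulated noise was independent between arrays, so those runs did not cover the deviations shared by pieces of 1 embryo. Intensities give no count depth, so the number of arrays limits the precision.

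Genes named were, by rule, those passing the slope or F test, the 5 largest differences between the ends per direction, the brightest of each family, all Celf, Rbfox, Ptbp, Nova and Mbnl genes, and the 3 largest differences between replicates per direction. The members and lists were chosen with earlier results of these data known. The alternatives were other offsets, quantile normalization, median centring, other filters, the mean of probe sets, a variance trend, the embryo as a block and arrays or pieces left out.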

Additional observations from a re-analysis of the deposited data

How the results depend on the processing

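The Mbnl1 slope passed in every alternative run, and limits of the other calls stand beside them. With 2 arrays per piece, and Mbnl2, Mbnl3, Nova1, Nova2 and Celf4 at signals near or a few times the array medians, single arrays decided several calls. The cause of each change below was not tested, except that the 75th percentile filter removed Mbnl2, Nova1, Nova2 and Celf4 from testing and left 79 members.

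Over part number 5 members were called; median centring gave 8, leaving out part 1 gave 3, and leaving out 1 array gave 2 to 7, with 2 without replicate 2 of part 1 and 3 without replicate 2 of part 5. The F test called 3, and 1 to 4 with 1 array left out, the 1 without replicate 2 of part 6. Between the ends 6 were called, 2 with the 75th percentile filter, and 2 to 9 with 1 array left out, the 2 without replicate 2 of part 6. Between replicates 1 was called, 0 with an offset of 1 or no filter, 2 with the offset at the median or the mean of probe sets, 3 with the 75th percentile filter, 6 with a variance trend, and 0 to 1 with 1 array left out. These settings for the replicates were chosen after seeing the data. Between consecutive pieces all settings gave 0. With the embryo as a block the counts were 6, 4, 6 and 0 for the slope, the F test, the ends and the steps, and the block changed no call other than those of Hnrnph3 and Nova2. Of the 12 single-gene values that passed a test, 2 changed sign in an alternative: the Mbnl2 slope was 0.12 by probe set 1457237_at, and Rbmx between replicates was 0.018 by the mean of its probe sets. Of the 45 that did not pass, 25 changed sign in at least 1 alternative, so their directions are not settled. Over all genes, the 594 calls of the F test became 381 and 344 without replicate 1 or 2 of part 6, the 1099 between the ends 611 and 487, and the 1540 slopes 903 and 976 without part 1 or part 6. The 197 between replicates ranged from 113 to 611, and the 51 over consecutive pieces from 20 to 128.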
